A study of Mus musculus with 9 samples.

Results

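The genes described here encode the non-collagen proteins of the extracellular matrix: glycoproteins, proteoglycans, laminins, elastic fibre components and the matricellular proteins that bind to them. They were chosen from a list of 54 gene symbols, and 52 of the 54 had a probe set assigned to a single gene, out of 22180 genes measured in all. Ctgf, Cyr61, Wisp1 and Wisp2 are measured here under the current symbols Ccn2, Ccn1, Ccn4 and Ccn5. Fbn1 and Efemp2 were not analysed here. The tissue was periprostatic fat, which surrounds the prostate, from C57BL/6J males, and each mouse was profiled on 1 Affymetrix Mouse Gene 2.0 ST array. The high fat group held 5 mice whose diet drew 60% of its energy from fat, and the low fat group held 4 mice whose diet drew 10%. Both diets began at 6 weeks of age and lasted 12 weeks, tissue was taken at 18 weeks, and no genetic change or drug was involved. The depot was taken whole, from 1 sex and 1 strain, and cells of all its types contribute to each value.

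Fat cells sit in a meshwork of matrix. Each adipocyte is wrapped in a basement membrane built from laminin trimers (1 alpha, 1 beta and 1 gamma chain), nidogens and the proteoglycan perlecan. Between the cells lie interstitial collagen fibrils whose assembly is tuned by small leucine-rich proteoglycans, and elastic fibres, in which elastin is laid on microfibrils of fibrillin with their associated proteins and fibulins. Matricellular proteins such as thrombospondins, tenascin-C, periostin, SPARC and the CCN family are secreted into this meshwork, where they modulate cell adhesion and growth factor signals more than they bear load. In adipose tissue much of this matrix is made by fibroblast-like stromal cells, and adipocytes, endothelial cells and macrophages contribute.

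More of the matrix genes were higher than lower in high fat mice. By limma with Benjamini-Hochberg adjustment over all genes, 27 of the 52 members rose at an adjusted p under 0.05 and 1 fell, against 12.4% of all 22180 genes that rose and 9.13% that fell. The median difference over the members, high fat minus low fat, was 0.36 on the log2 scale, against -0.001 over all genes, and 49 of the 52 differences were positive. In 27 members every high fat mouse lay above every low fat mouse, and in 1 member every high fat mouse lay below, against 11.6% and 9.15% of all genes. The balance between directions over all genes moved with scaling. With quantile normalization repeated 10.5% of genes rose and 12.5% fell, and with arrays centred on their medians 10.0% rose and 13.8% fell; the members then numbered 24 higher and 1 lower under either. With genes under the 25th percentile of mean level left out, the member Hapln1 among them, 16.9% of genes and 29 members rose.

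**Figure D1:**
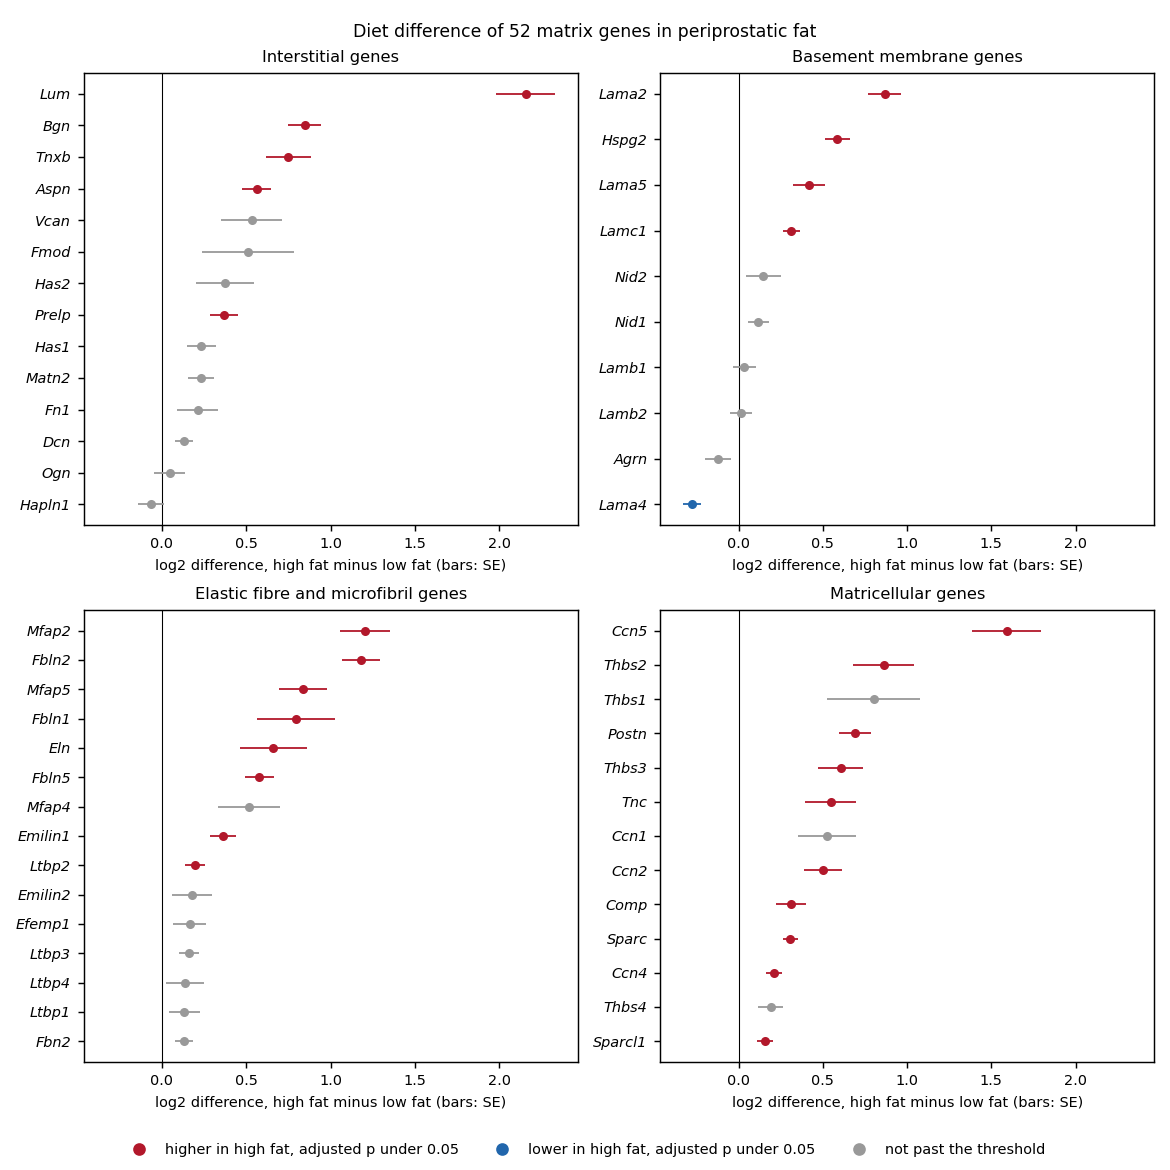
Differences on the log2 scale, high fat minus low fat, of the 52 measured genes in 4 compartments; points are limma estimates, bars are SE, and colour marks genes past an adjusted p of 0.05. Nearly all points lie right of 0, with Lum, Ccn5, Mfap2 and Fbln2 farthest out, and Lama4 is the member that fell.

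The share of members that rose was 10 of 13 among matricellular genes, 8 of 15 among elastic fibre and microfibril genes (5 without high fat mouse 2 or 3), 4 of 10 among basement membrane genes and 5 of 14 among interstitial genes. The median log2 difference was 0.52 for matricellular genes, 0.37 for interstitial, 0.36 for elastic fibre and 0.13 for basement membrane genes. Of all 22180 genes 12.4% rose and 9.13% fell, and their median was -0.001. Whether the compartments differ from each other was not tested. The single decrease, that of Lama4, was in the basement membrane.

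Libraries that stood apart were examined first. Adipocyte markers were bright in every mouse (mean log2 value of 7 markers 12.53 to 12.72 in high fat mice and 12.78 to 12.80 in low fat mice), and markers of prostate and seminal vesicle epithelium were dim in every mouse (7 markers, 5.16 to 5.29 in high fat mice and 5.17 to 5.26 in low fat mice). The mean of 8 skeletal muscle markers was 8.76 in high fat mouse 1 and lay between 6.45 and 6.53 in the rest of its diet, and it was 7.42 in low fat mouse 4. For 8 smooth muscle markers, low fat mouse 2 had a mean of 10.23, while the remaining low fat mice had 8.14 to 8.22. None of these 16 muscle genes passed the test between diets, and 1 of them had an unadjusted limma p under 0.05. Without high fat mouse 1 and low fat mouse 2, with low fat mouse 4 kept, 26 members rose and 1 fell. Without high fat mice 1 and 2, whose arrays had the widest distributions of values (SD over genes 1.90 each, and 1.85 to 1.88 in the others of both diets), 21 rose and 1 fell, and among matricellular genes 6 rose.

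Markers of some other cell types moved with the diet. For comparison, 12.4% of all genes rose and 9.13% fell. All 8 macrophage markers rose, with list means of 11.32 to 11.98 in high fat mice and 9.51 to 10.02 in low fat mice. Of 8 fibroblast and adipose progenitor markers, 5 rose and 0 fell, with list means of 10.36 to 10.83 in high fat mice and 9.74 to 10.13 in low fat mice. Those that rose were Col1a1 (1.25), Col3a1 (0.82), Pdgfra (0.70), Pdgfrb (0.42) and Cd34 (0.37), while Dpp4, Pi16 and Cd55 did not pass. Col1a1 and Col3a1 are collagen genes and so are matrix genes themselves. Of 7 adipocyte markers 1 rose and 5 fell, and of 8 endothelial markers 1 rose and 2 fell. Of 4 Schwann cell markers 1 rose. None of the 7 mesothelial markers passed, at list means of 7.97 to 9.30 in high fat mice and 7.54 to 8.65 in low fat mice; limma also gave 0 of 7 at an unadjusted p under 0.05. The part of these cell types in the matrix differences was not tested, and in whole tissue more cells of a type and more RNA per cell cannot be told apart.

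**Figure D2:**
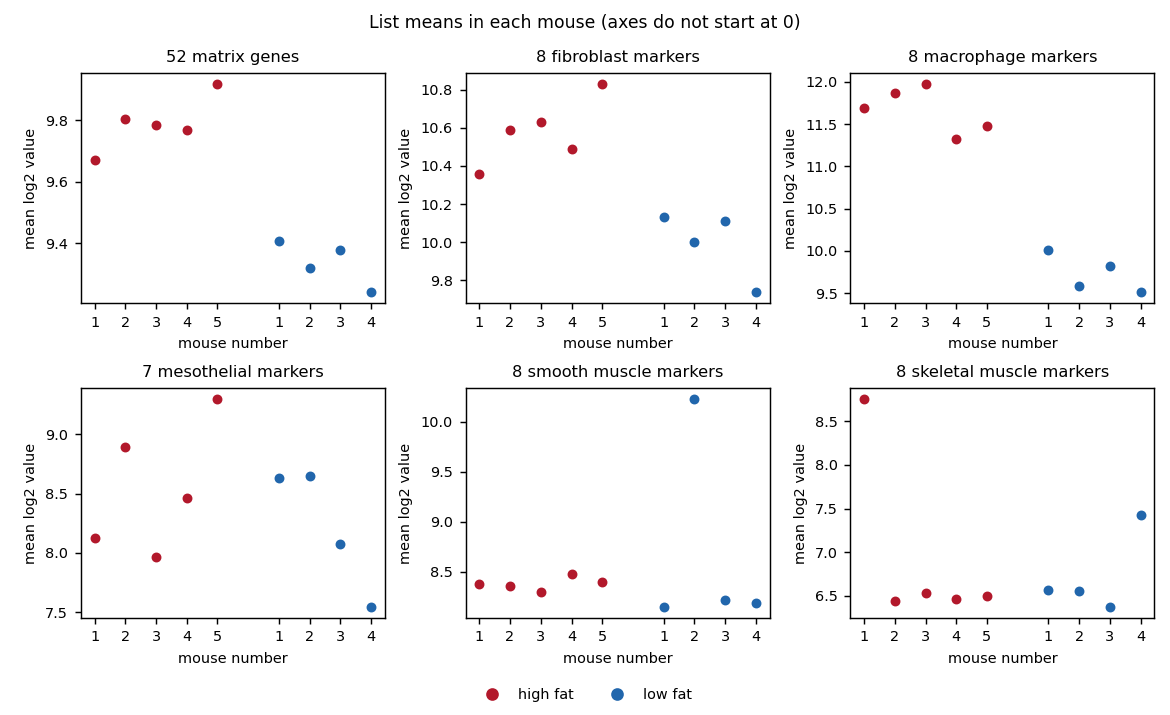
Mean log2 value of the 52 matrix genes and of 5 marker lists in each mouse, high fat mice on the left of each panel. Matrix, fibroblast and macrophage means separate the diets, mesothelial means overlap between them, and low fat mouse 2 and high fat mouse 1 stand out in the smooth and skeletal muscle panels.

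Among the interstitial genes Lum had the largest difference of all 52 members. Lum encodes lumican, a small leucine-rich keratan sulphate proteoglycan that binds collagen fibrils and limits their width. Its log2 values (probe set 17236811) were 10.13, 10.57, 10.69, 9.89 and 10.42 in high fat mice 1 to 5, against 8.32, 8.49, 8.01 and 7.90 in low fat mice 1 to 4. The groups lay far apart, with more than 1 log2 unit between the lowest high fat and the highest low fat mouse. Lum was 4.46-fold higher in high fat mice (log2 difference 2.16 ± 0.18 (SE), limma adjusted p = 6.44e-05). Over the 18 alternatives its difference stayed between 2.07 and 2.31.

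Bgn encodes biglycan, a small proteoglycan of the same family that also acts as a danger signal when released. It stood at 12.79, 13.07, 13.12, 12.93 and 13.11 in high fat mice, against 12.16, 12.32, 12.27 and 11.88 in low fat mice. The groups did not overlap, and Bgn was 1.80-fold higher (log2 difference 0.85 ± 0.10 (SE), limma adjusted p = 0.00034). A further probe set of Bgn gave a log2 difference of 0.78. Aspn, which encodes asporin, a relative that competes with decorin for collagen, had values of 9.56, 9.63, 9.70, 9.71 and 9.79 in high fat mice and 8.88, 9.06, 9.30 and 9.23 in low fat mice. High fat mice were again all above low fat mice, and Aspn rose 1.48-fold (limma adjusted p = 0.00114).

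Tnxb encodes tenascin-X, a large glycoprotein that links collagen fibrils and whose loss in humans gives a form of Ehlers-Danlos syndrome. Its log2 values were 10.29, 10.70, 10.70, 10.61 and 11.00 in high fat mice and 9.97, 9.99, 10.04 and 9.64 in low fat mice. The groups did not overlap, although low fat mouse 4 lay well below the other low fat mice, and the gene rose 1.68-fold (log2 difference 0.75 ± 0.13 (SE), limma adjusted p = 0.00282). Prelp, which encodes a leucine-rich protein that ties basement membrane to collagen, rose 1.29-fold (limma adjusted p = 0.0117). The other probe set of Prelp gave a log2 difference of -0.04, and with the mean of both the gene no longer passed (0.17).

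Of the 7 small leucine-rich proteoglycan genes among the members 4 rose (Lum, Bgn, Aspn and Prelp), against 12.4% of all genes. Dcn, which encodes decorin, the best known of them, had values of 13.34, 13.46, 13.44, 13.37 and 13.58 in high fat mice and 13.37, 13.30, 13.32 and 13.24 in low fat mice. These ranges overlap, and the difference was 0.13 with a 95% interval of 0.01 to 0.25 (limma adjusted p = 0.125). For Ogn, the osteoglycin gene, the difference was 0.05 with an interval of -0.16 to 0.25, and for Fmod, the fibromodulin gene, 0.51 with an interval of -0.10 to 1.12. Fmod varied widely within each diet, at 8.65 to 9.68 in high fat mice and 7.96 to 9.18 in low fat mice.

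Genes of this family lie next to each other in the mouse genome. Dcn and Lum are adjacent on chromosome 10, with log2 differences of 0.13 and 2.16, and the next gene along, Kera, which encodes the corneal proteoglycan keratocan, was at -0.06 and did not pass. On chromosome 13 the genes Ecm2, Aspn, Omd and Ogn follow each other, and of these 4 Aspn was called (0.56), while Ecm2 (0.03), Omd (0.01) and Ogn (0.05) were not. On chromosome 1 Optc, Prelp and Fmod follow each other, with differences of 0.28, 0.37 and 0.51, and of these Prelp was called. Differences between neighbours were not tested. Ecm2, Omd, Kera and Optc are not among the 52 members.

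The remaining interstitial genes encode fibronectin, matrilin-2 and parts of the hyaluronan network, and none of them passed the test. Fn1, the fibronectin gene, did not pass at 13.07, 12.98, 12.86, 12.94 and 13.22 in high fat mice and 13.09, 12.47, 12.94 and 12.71 in low fat mice. Its difference was 0.21 with an interval of -0.06 to 0.48, and low fat mouse 1 lay above 4 of the 5 high fat mice. Has1 and Has2 encode hyaluronan synthases, Hapln1 a link protein and Vcan the hyaluronan-binding proteoglycan versican. Among these 4 hyaluronan genes, Has1 and Vcan had an unadjusted limma p under 0.05, as did 7254 of all 22180 genes. Vcan was at 8.60, 8.91, 8.71, 8.69 and 9.58 in high fat mice and 8.50, 8.40, 8.35 and 8.22 in low fat mice (limma adjusted p = 0.0617). High fat mouse 5 alone was far above the rest, and without it the difference of Vcan was 0.36 and passed (limma adjusted p = 0.014). It passed in 4 of 18 alternatives in all. Outside the members the link protein genes Hapln4 (0.43, limma adjusted p = 0.00317) and Hapln3 (0.17, limma adjusted p = 0.0352) rose, and the synthase gene Has3 (0.02) did not pass. Has2 had a difference of 0.37, Has1 of 0.23 and Matn2, the matrilin-2 gene, of 0.23. Hapln1 (-0.07) and Has1 lay below the medians of the arrays in every mouse, and whether they were above background was not determined.

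**Figure D3:**
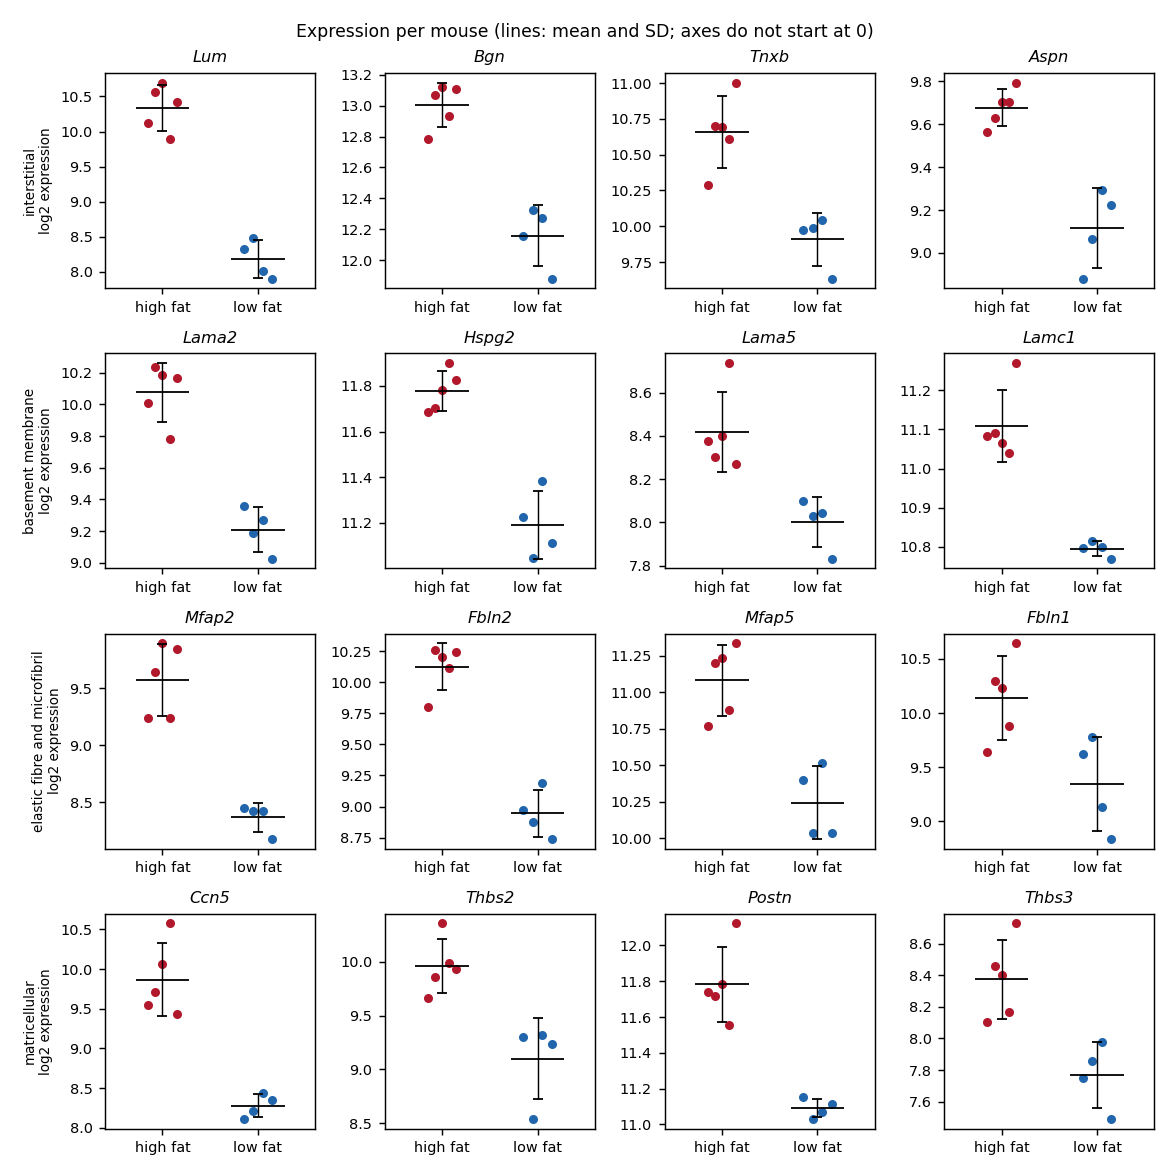
Log2 expression per mouse of the 4 members of each compartment with the largest difference past the threshold; lines are the mean and SD of 5 high fat and 4 low fat mice. The groups are separate in every panel except that of Fbln1.

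Elastic fibre genes rose in 8 of 15 measured members, and none fell, against 12.4% and 9.13% of all genes. Without high fat mouse 2, or without high fat mouse 3, 5 of the 15 rose. Mfap2, which encodes a glycoprotein of microfibrils that also binds growth factors of the TGF-beta family, led with 9.24, 9.65, 9.90, 9.24 and 9.84 in high fat mice, against 8.45, 8.42, 8.42 and 8.18 in low fat mice. The low fat values are tight except for mouse 4, and no value crosses between diets. Mfap2 rose 2.30-fold (log2 difference 1.20 ± 0.15 (SE), limma adjusted p = 0.000396). Its relative Mfap5 stood at 10.77, 11.20, 11.23, 10.88 and 11.34 in high fat mice and 10.40, 10.03, 10.51 and 10.03 in low fat mice, again without overlap, a rise of 1.79-fold (limma adjusted p = 0.00231). Mfap4, an unrelated microfibril protein gene despite its name, had a difference of 0.52 and did not pass (limma adjusted p = 0.0741), and its groups overlapped. Without high fat mouse 1, at 7.02 the lowest of its diet, the difference of Mfap4 was 0.63 and passed (limma adjusted p = 0.027), as it did in 3 of 18 alternatives in all.

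Fibulins are calcium-binding glycoproteins that bridge elastin, microfibrils and basement membrane. Among the members 3 of the 4 fibulin genes rose, against 12.4% of all genes. Fbln2 had log2 values of 9.80, 10.26, 10.21, 10.12 and 10.25 in high fat mice and 8.97, 8.88, 9.19 and 8.74 in low fat mice. The diets were well separated, and Fbln2 was 2.27-fold higher (log2 difference 1.18 ± 0.11 (SE), limma adjusted p = 0.000121). Fbln5, needed for elastic fibre assembly in mice, rose 1.49-fold (limma adjusted p = 0.00123). Fbln1 stood at 9.64, 10.30, 10.23, 9.88 and 10.64 in high fat mice and 9.62, 9.78, 9.14 and 8.84 in low fat mice. High fat mouse 1 fell among the low fat mice here, and the rise of 1.73-fold (limma adjusted p = 0.0357) no longer passed in 7 of 18 alternatives. Efemp1, the fibulin-3 gene, had a difference of 0.16 with an interval of -0.05 to 0.38. Fbln7, which is not a member, rose 1.75-fold (limma adjusted p = 0.00425).

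Eln, which encodes elastin itself, had values of 7.98, 8.79, 8.42, 8.57 and 9.11 in high fat mice and 7.71, 7.98, 8.18 and 7.79 in low fat mice. Its rise of 1.58-fold (limma adjusted p = 0.0397) was close to the threshold, and it failed in 9 of 18 alternatives, among them those that left out high fat mouse 2, 3, 4 or 5 or low fat mouse 1, 2 or 4. Emilin1, which encodes a glycoprotein at the elastin and microfibril interface, rose 1.28-fold (limma adjusted p = 0.00793), and Emilin2 had a difference of 0.18. The latent TGF-beta binding proteins hold TGF-beta in the matrix in its inactive form. Of their 4 genes only Ltbp2, whose protein differs from the others in that it does not bind latent TGF-beta, passed (0.20, limma adjusted p = 0.0379), and it failed in 11 of 18 alternatives. Ltbp1 (0.13), Ltbp3 (0.16) and Ltbp4 (0.14) did not pass, with upper interval limits of 0.34, 0.29 and 0.38. Fbn2, a fibrillin gene active mainly in development, was dim in every mouse (5.73 to 5.89 in high fat mice and 5.55 to 5.75 in low fat mice) and did not pass.

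In the basement membrane 4 of 10 genes rose and 1 fell, against 12.4% and 9.13% of all genes. Lama2, which encodes the alpha-2 laminin chain known from muscle and nerve, stood at 10.01, 10.23, 10.19, 9.78 and 10.17 in high fat mice, against 9.36, 9.19, 9.27 and 9.03 in low fat mice. The groups were separate, and Lama2 was 1.82-fold higher (log2 difference 0.87 ± 0.10 (SE), limma adjusted p = 0.00029). Lama4, which encodes the alpha-4 chain of vessels and adipocytes, went the other way, with 11.10, 11.06, 10.92, 11.02 and 11.15 in high fat mice and 11.35, 11.27, 11.29 and 11.40 in low fat mice. Every high fat mouse lay below every low fat mouse, and Lama4 was 1.21-fold lower (log2 difference -0.28 ± 0.05 (SE), limma adjusted p = 0.00435). It passed as lower in all 18 alternatives, at -0.32 to -0.25. Of 8 endothelial markers 2 fell (Kdr at -0.26 and Robo4 at -0.25), 1 rose (Vwf at 0.39) and 5 did not pass, with list means of 9.87 to 10.05 in high fat mice and 9.91 to 10.13 in low fat mice. Of 7 adipocyte markers 5 fell and 1, Lep, rose (0.60). Their part in the result was not tested.

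Lama5, the gene of the broadly expressed alpha-5 chain, had values of 8.38, 8.30, 8.40, 8.74 and 8.27 in high fat mice and 8.10, 8.03, 8.04 and 7.83 in low fat mice. High fat mouse 4 stood above its group, and the rise was 1.33-fold (limma adjusted p = 0.0117). Lamc1, the gamma-1 chain gene shared by most laminins, stood at 11.08, 11.09, 11.07, 11.04 and 11.27 in high fat mice and 10.80, 10.82, 10.80 and 10.77 in low fat mice. Spread within each diet was small apart from high fat mouse 5, and Lamc1 rose 1.24-fold (limma adjusted p = 0.00174). The beta chain genes among the members did not pass, Lamb1 with a difference of 0.03 and an interval of -0.12 to 0.18, and Lamb2 with 0.02 and an interval of -0.13 to 0.16. Of the 6 laminin chains among the members, then, 3 rose and 1 fell, against 12.4% and 9.13% of all genes. Outside the members, 4 more chains were measured: Lamb3 rose 1.55-fold (limma adjusted p = 0.000231), and Lama1 (-0.02), Lama3 (-0.09) and Lamc3 (-0.06) did not pass.

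Hspg2 encodes perlecan, the large heparan sulphate proteoglycan of basement membranes. It had values of 11.69, 11.70, 11.78, 11.90 and 11.82 in high fat mice and 11.23, 11.04, 11.38 and 11.11 in low fat mice, with no overlap. The rise was 1.50-fold (log2 difference 0.59 ± 0.07 (SE), limma adjusted p = 0.000451). Agrn, which encodes agrin, another heparan sulphate proteoglycan of this layer, did not pass at -0.12, with an interval of -0.29 to 0.05. The nidogen genes, whose products join laminin to collagen IV, did not pass either, with Nid1 at 0.12 and Nid2 at 0.15.

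Matricellular genes rose in 10 of 13 members, and none fell, against 12.4% and 9.13% of all genes. Ccn5 encodes a CCN protein that lacks the C-terminal domain of its relatives and is secreted by adipose precursor cells. It stood at 9.55, 9.71, 10.06, 10.57 and 9.44 in high fat mice, against 8.11, 8.21, 8.44 and 8.34 in low fat mice. The lowest high fat mouse was about 1 log2 unit above the highest low fat mouse, and Ccn5 was 3.01-fold higher (log2 difference 1.59 ± 0.21 (SE), limma adjusted p = 0.000542). Ccn2, the connective tissue growth factor gene, rose 1.42-fold (limma adjusted p = 0.0108), with low fat mouse 2 at 8.51 inside the high fat range of 8.43 to 8.76. That mouse is the one with high smooth muscle markers, and the part of smooth muscle in its Ccn2 value was not tested. The second, dimmer probe set of Ccn2 gave a log2 difference of 0.17. Ccn4 rose 1.16-fold (limma adjusted p = 0.00991), at values below the medians of the arrays. Ccn1 had a difference of 0.52 and narrowly missed the threshold (limma adjusted p = 0.0544), although its groups did not overlap. Ccn3 (0.13) and Ccn6 (-0.001), of the same family but not members, did not pass.

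Thrombospondins are secreted multimers that bind calcium, integrins and CD47, and the thrombospondins made from Thbs1 and Thbs2 also inhibit angiogenesis. Thbs2 had log2 values of 9.66, 9.86, 10.36, 9.99 and 9.94 in high fat mice and 9.30, 8.54, 9.32 and 9.24 in low fat mice. The diets did not overlap, and Thbs2 was 1.82-fold higher (log2 difference 0.86 ± 0.18 (SE), limma adjusted p = 0.00702). Thbs1, which encodes an activator of latent TGF-beta, stood at 11.67, 11.65, 11.76, 12.11 and 11.80 in high fat mice and 11.54, 9.96, 11.34 and 11.15 in low fat mice. Low fat mouse 2 was far below the others in Thbs1, and the difference of 0.80 did not pass (limma adjusted p = 0.0667). Without that mouse the difference was 0.46, and it passed (limma adjusted p = 0.028). Thbs1 also passed without low fat mouse 1, at 0.98.

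Thbs3 had values of 8.11, 8.46, 8.40, 8.17 and 8.73 in high fat mice and 7.75, 7.86, 7.98 and 7.49 in low fat mice. No value crossed between the diets, and Thbs3 rose 1.52-fold (limma adjusted p = 0.00993). Comp, the gene of thrombospondin-5 or cartilage oligomeric matrix protein, rose 1.24-fold (limma adjusted p = 0.0344), lay below the medians of the arrays in every mouse, and failed in 8 of 18 alternatives. Thbs4 had a difference of 0.19 and did not pass.

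Postn encodes periostin, a fibroblast product that binds collagen and integrins. Its values were 11.74, 11.72, 11.79, 11.55 and 12.12 in high fat mice, against 11.15, 11.03, 11.07 and 11.11 in low fat mice. The low fat mice lay close together, well below the high fat mice, and Postn was 1.62-fold higher (log2 difference 0.69 ± 0.10 (SE), limma adjusted p = 0.000796). Tnc, the gene of tenascin-C, a protein of injured and remodelling tissue, rose 1.46-fold (limma adjusted p = 0.0263) with overlapping groups, and it failed in 7 of 18 alternatives. Sparc, whose product binds collagen and modulates its deposition, rose by a small and even amount, 1.24-fold (limma adjusted p = 0.000887), at 12.76 to 12.86 in high fat mice and 12.44 to 12.61 in low fat mice. Its relative Sparcl1 was 1.12-fold higher (limma adjusted p = 0.0404) and failed in 12 of 18 alternatives.

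**Figure D4:**
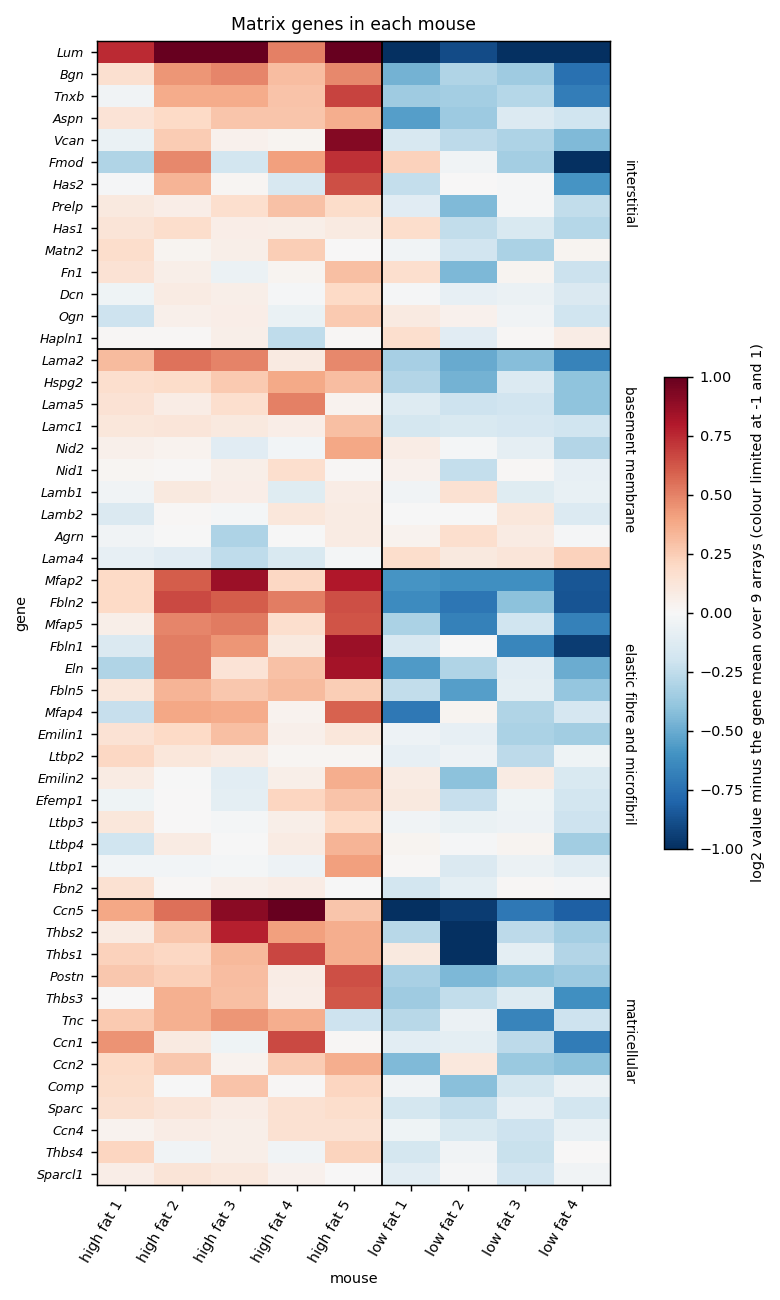
Log2 value of each member minus its mean over the 9 arrays, with high fat mice 1 to 5 on the left and low fat mice 1 to 4 on the right; colours are limited at -1 and 1. Red prevails on the left and blue on the right in each compartment, high fat mouse 5 is the highest of its diet in 26 of 52 genes, and Lama4 shows the opposite colours.

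Within each diet, the mouse with the highest or lowest value was counted over the members. High fat mouse 5 was the highest of its group in 26 of 52 members, against 17.4% of all genes, and high fat mouse 1 the lowest in 20 of 52 members, against 22.2% of all genes. Low fat mouse 4 was the lowest of its group in 23 of 52, against 21.8% of all genes, and low fat mouse 1 the highest in 21 of 52, against 29.2%. Relative to the mean of its diet, high fat mouse 5 lay 0.21 higher over the elastic fibre genes and 0.20 higher over the interstitial genes, while its matricellular mean of 9.47 lay inside the 9.42 to 9.55 of its diet mates. The same mouse had the highest list mean of its diet for fibroblast markers (10.83) and for mesothelial markers (9.30), and low fat mouse 4 had the lowest of its diet for both (9.74 and 7.54). The part of these cells in the variation was not tested. Without high fat mouse 5 the count was 25 members higher, and without low fat mouse 4 it was also 25.

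Promoter sequence is shown for the 4 members with the largest increase that have an entry in the RefSeq promoter table (34 of 52 have one), so that the start regions of genes that rose can be set side by side. Each is the 250 bases before the annotated start on build GRCm38.p6, on the gene's own strand, and for Mfap2 the first of 2 listed starts is used. The windows are chr4:141010431-141010680 (+) for Mfap2, chr6:91212514-91212763 (+) for Fbln2, chr10:27616943-27617192 (-) for Lama2 and chr17:14694263-14694512 (-) for Thbs2. Capitals mark matches, on either strand, to a GC box (GGGCGG), a Smad element (CAGAC) or a TATA box (TATAAA). The AP-1 element (TGANTCA) and the TEAD element (GGAATG) were searched too. These motifs do not overlap each other in the windows shown.
Mfap2: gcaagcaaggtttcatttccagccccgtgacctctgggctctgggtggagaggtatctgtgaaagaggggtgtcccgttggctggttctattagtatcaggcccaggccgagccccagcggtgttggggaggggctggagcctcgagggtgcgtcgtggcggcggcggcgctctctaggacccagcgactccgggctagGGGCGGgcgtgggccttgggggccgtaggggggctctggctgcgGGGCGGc
Fbln2: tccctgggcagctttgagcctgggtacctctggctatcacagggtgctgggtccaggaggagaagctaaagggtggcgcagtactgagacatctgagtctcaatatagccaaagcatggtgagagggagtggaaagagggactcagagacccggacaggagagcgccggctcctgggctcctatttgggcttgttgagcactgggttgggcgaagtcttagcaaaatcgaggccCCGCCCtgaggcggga
Lama2: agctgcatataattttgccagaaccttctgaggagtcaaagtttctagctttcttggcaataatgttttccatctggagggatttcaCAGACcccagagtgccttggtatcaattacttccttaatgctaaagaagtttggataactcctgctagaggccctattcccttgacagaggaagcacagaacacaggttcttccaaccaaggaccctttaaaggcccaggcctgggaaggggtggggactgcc
Thbs2: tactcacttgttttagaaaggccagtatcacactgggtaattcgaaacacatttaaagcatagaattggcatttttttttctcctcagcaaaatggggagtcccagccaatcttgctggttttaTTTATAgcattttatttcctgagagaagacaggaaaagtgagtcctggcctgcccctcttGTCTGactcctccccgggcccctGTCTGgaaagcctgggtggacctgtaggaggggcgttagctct

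Mfap2 holds 2 matches to the GC box and Fbln2 holds 1, while Lama2 holds 1 match to the Smad element, and Thbs2 has 2 of these and 1 to the TATA box. In the table as a whole, 32.7% of 32851 windows hold a GC box, 42.2% the Smad letters, 12.4% a TATA box, 6.75% the AP-1 letters and 12.6% the TEAD letters. Among 44 windows of 34 members the corresponding counts were 23, 25, 7, 2 and 6. No motif was common to all 4 windows, and a match says only that these letters are present.

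Matrix is read by receptors on the cell surface, chiefly integrins, syndecans, glypicans, discoidin receptors and CD44. Of 34 measured receptor genes, 19 rose and 1 fell, and the median log2 difference was 0.31. Over all genes, 12.4% rose and 9.13% fell, with a median of -0.001. Cd44, the hyaluronan receptor gene, was at 8.92 to 9.56 in high fat mice and 7.41 to 8.12 in low fat mice, a rise of 2.90-fold (limma adjusted p = 0.000184). CD44 is abundant on leukocytes as well as on stromal cells. Gpc1, the glypican-1 gene, rose 2.22-fold (limma adjusted p = 0.00018), and Itga5, which encodes the alpha chain of the main fibronectin receptor, rose 1.86-fold (limma adjusted p = 0.000267). Gpc4, the glypican-4 gene, fell with a log2 difference of -0.35 (limma adjusted p = 0.0204).

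**Figure D5:**
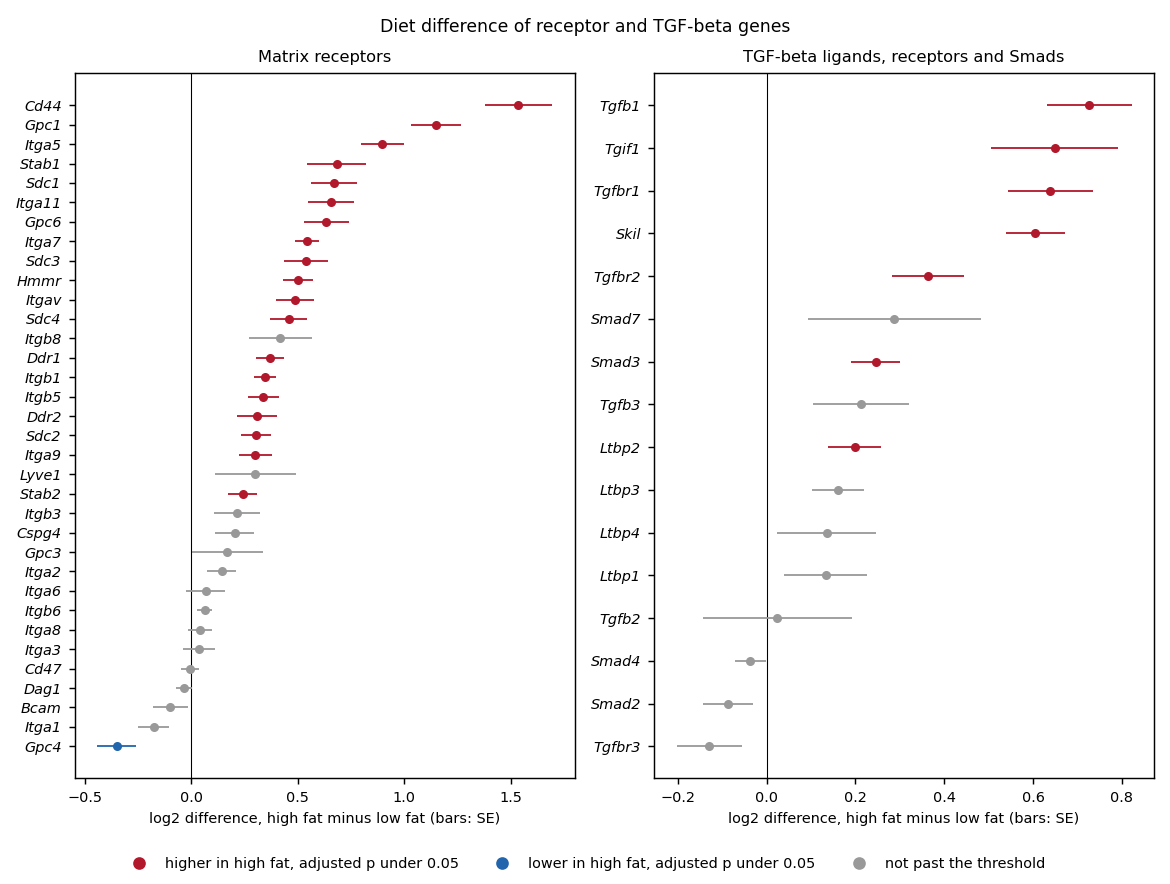
Differences on the log2 scale, high fat minus low fat, of 34 matrix receptor genes and of 16 genes of the TGF-beta list; bars are SE and colour marks an adjusted p under 0.05. Cd44 and Gpc1 lead the receptors, Tgfb1, Tgif1 and Tgfbr1 lead the TGF-beta list, and Gpc4 is the gene that fell.

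TGF-beta is the best known inducer of many of these matrix genes in fibroblasts. Its part in the matrix differences here was not tested. In a list of TGF-beta ligands, receptors, Smads and related genes, 7 of 16 measured genes rose and 0 fell. The median over the list was 0.21. The shares over all genes were 12.4% and 9.13%. This list includes the 4 latent TGF-beta binding protein genes already described. Tgfb1, the gene of the main ligand, had values of 10.44, 10.63, 10.82, 10.42 and 10.37 in high fat mice and 9.82, 9.80, 9.95 and 9.66 in low fat mice, a rise of 1.65-fold without overlap (limma adjusted p = 0.000579). Tgif1, which encodes a transcriptional repressor of this pathway, rose 1.57-fold, and Tgfbr1, the type I receptor gene, rose 1.56-fold. Skil (0.60), Tgfbr2 (0.36), Smad3 (0.25) and Ltbp2 (0.20) also rose. The other ligands did not pass, with Tgfb2 at 0.02 and Tgfb3 at 0.21. Smad7 (0.29), Smad4 (-0.04), Smad2 (-0.09) and Tgfbr3 (-0.13) did not pass either.

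Beyond the members, a further 47 genes of matrix glycoproteins and proteoglycans were measured. Of these 12 (25.5%) rose and 2 fell, against 12.4% and 9.13% of all genes. Their median log2 difference was 0.08, against -0.001 over all genes. Svep1, the gene of a large adhesion protein, rose 1.99-fold (limma adjusted p = 5.1e-05). Smoc2, a calcium-binding matricellular gene related to Sparc, rose 1.88-fold, and so did Ncan, the neurocan gene. Podn, which encodes podocan, another leucine-rich proteoglycan, was at 10.07 to 10.47 in high fat mice and 11.40 to 11.80 in low fat mice. It was 2.55-fold lower (log2 difference -1.35 ± 0.10 (SE), limma adjusted p = 4.08e-05), opposite in direction to Lum. Smoc1 was 1.82-fold lower (limma adjusted p = 0.000744), opposite to Smoc2. Lamb3, Fbln7, Hapln3, Hapln4 and Has3, given above with the other laminin and CCN genes outside the members, belong to these 47 genes and were singled out after their values were seen.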

How the data were processed

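The authors deposited log2 expression for each probe set. RMA, limma and R 3.5.0 are named, without role or order, by the submitters' processing notes. Annotation version: not given in the sources used here. Of 33793 probe sets, 23521 had a single gene symbol. Where a gene had several probe sets (1082 genes), the one with the highest mean of 9 arrays was used, giving 22180 genes. Names were checked through RefSeq (GRCm38.p6), and 4 members were found under newer symbols.

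Diet was tested with limma 3.58.1 in R 4.3.3 (lmFit and eBayes, an intercept and diet), Benjamini-Hochberg over all genes, threshold adjusted p 0.05. The procedure was tested on simulated data with independent noise for each gene. Changes of 0.25, 0.5, 1 and 2 log2 units were each given to 50 genes, and 17, 42, 48 and 50 were called. There were 6 false calls. All changes were increases, in far fewer genes than the 4768 called in the data. These counts need not hold for the real fit. Folds are powers of 2 of the log2 differences. No detection calls were used, so no level was set against background, and the number of arrays limits precision. Each title names 1 mouse.

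The members, lists and naming rule were chosen with earlier results of these data known, and the gene families, motifs and promoters shown after values were seen. In each compartment the rule gives in full the 4 called members with the largest difference and the largest opposite change, and in other lists the 3 largest called changes each way. Alternatives covered normalization, centring, dim genes, probe choice, weighting of arrays, variance model, a block for mouse number, and left-out mice. The fit without high fat mouse 1 and low fat mouse 2 was added after seeing the data.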

Additional observations from a re-analysis of the deposited data

Results flagged for a closer look

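In 104 groups (52 members in each diet), 11 had a mouse far from the others of its diet by Dixon's test at the 95% level, where chance gives about 1 in 20. In the high fat group, mouse 5 was highest for Lamc1 (11.27, the others 11.04 to 11.09) and Ltbp1 (9.39, the others 8.92 to 8.95) and lowest for Tnc (8.21, the others 8.68 to 8.86). High fat mouse 4 was highest for Lama5 (8.74, the others 8.27 to 8.40) and lowest for Hapln1 (5.20, the others 5.47 to 5.51). In the low fat group, mouse 4 was lowest for Mfap2 (8.18, the others 8.42 to 8.45), Ltbp4 (10.34, the others 10.68 to 10.72) and Tnxb (9.64, the others 9.97 to 10.04). Low fat mouse 2 was lowest for Thbs2 (8.54, the others 9.24 to 9.32) and highest for Ccn2 (8.51, the others 7.96 to 8.03), and low fat mouse 3 was lowest for Ltbp2 (7.05, the others 7.24 to 7.27).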

How the results depend on the processing

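Of the 28 called members, 20 passed in each of the 18 alternatives that tested them, 8 lost the call in at least 1, and none reversed. Of the others, 6 passed in at least 1 alternative. Leaving out 1 mouse at a time gave 22 to 26 members higher and 1 lower, 5 to 8 elastic fibre genes, 7 to 10 matricellular genes, and 3759 to 4364 genes in all. Elastic fibre genes higher numbered 5 without high fat mouse 2 or 3. Without high fat mice 1 and 2 together, 6 matricellular genes and 1716 genes in all were higher. Without high fat mouse 1 and low fat mouse 2, the numbers were 9 and 2017. The reason for the lower counts was not tested. With arrays centred on their medians 3056 genes were lower; the median of all genes was then -0.05, against -0.001. Deviations of same-numbered mice correlated at 0.0479 to 0.126 over genes. Mice of different numbers were not compared, so whether the mouse numbers pair the mice was not determined. With the mouse number as a replicate block, in which high fat mouse 5 has no partner and adds nothing to the diet estimate, 27 members were higher and 1 lower, 25 of them shared with the fit without it, and 4036 genes passed. No detection calls were used, so differences of dim genes such as Comp, Ccn4, Has1, Thbs4, Fbn2 and Hapln1 have no measured distance from background.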
